A study of Mus musculus with 10 samples.

Results

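The enzymes of red cell glycolysis are described here through 10 genes chosen by name: Hk1, Hk2, Gpi1, Pfkl, Aldoa, Tpi1, Gapdh, Pgk1, Pklr and Bpgm. They are 10 of the 23309 genes in the series' RNA table, and all 10 were among the 9619 that the authors tested. The authors assigned 12 of 4579 KLF3 peaks and 6 of 3800 KLF1 peaks to them, each peak going to the gene with the nearest transcription start site.

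Newly made RNA and the binding of a pair of Krüppel-like factors, zinc finger proteins that bind CACCC and related GC-rich sites, were profiled in mouse erythroid lines. J2E is an immortalised erythroid line from fetal liver and carried no KLF3 transgene. J2E-KLF3-ER is the same line with an added transgene for KLF3, a repressor, joined to the hormone-binding part of the estrogen receptor; 4-hydroxytamoxifen switches the joined protein on. RNA labelled with 500 µM 4-thiouridine (4sU) for 30 minutes came from 3 J2E libraries, of which 2 received 200 nM tamoxifen and the last ethanol vehicle. It also came from clones A, C and E of J2E-KLF3-ER, with 1 tamoxifen-treated library each. KLF3 was immunoprecipitated with an estrogen receptor antibody from clone C. KLF1, the main erythroid activator of the family, was immunoprecipitated with a KLF1 antibody from K1-ER cells (clones A and C), which are Klf1-null erythroblasts carrying a KLF1-ER fusion. Both chromatin libraries were made after 3 hours of tamoxifen from 3 pooled replicates, each with its own input. The RNA table gives 1 FPKM value per group (fragments per kilobase of transcript, scaled to library size), so no value per library, no spread and no depth can be set beside a level. Whether the J2E libraries were separate cultures is not stated, so apart from the vehicle treatment their spread may be technical alone. The J2E-KLF3-ER libraries differ by clone, and how the p-values weigh the spread within each group is not given. No J2E-KLF3-ER library without tamoxifen was analysed here, so the transgene, its switching on by the drug and the clones cannot be told apart. Tamoxifen itself went to all J2E-KLF3-ER libraries and to 2 of the 3 J2E libraries, so its own effect is not fully separated either.

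Mature red cells have no mitochondria and make their ATP by glycolysis alone. Hexokinase traps glucose, glucose phosphate isomerase, phosphofructokinase, aldolase and triose phosphate isomerase prepare it for the pay-off steps of glyceraldehyde phosphate dehydrogenase, phosphoglycerate kinase and pyruvate kinase, and bisphosphoglycerate mutase opens a side branch whose product lowers the oxygen affinity of haemoglobin. Inherited loss of pyruvate kinase, glucose phosphate isomerase or hexokinase causes haemolytic anaemia, and KLF1 is a known activator of the red cell pyruvate kinase gene.

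Promoter windows of 8 genes are shown first, since the changes and peaks described below centre on them. They are RefSeq windows of 300 bases on GRCm38.p6, from 250 before the start site to 50 from it on, read 5′ to 3′ on the gene's strand, with capitals at every match to CACCC or CNCNCCC (N any base) on either strand. Pklr and Gapdh are shown because their RNA passed the authors' test, Hk1, Hk2, Gpi1 and Pfkl because a KLF3 summit lay no more than 207 bp from their starts, and Pgk1 and Tpi1 because they had no peak.
Pklr upstream start, chr3:89135892-89136191, plus strand: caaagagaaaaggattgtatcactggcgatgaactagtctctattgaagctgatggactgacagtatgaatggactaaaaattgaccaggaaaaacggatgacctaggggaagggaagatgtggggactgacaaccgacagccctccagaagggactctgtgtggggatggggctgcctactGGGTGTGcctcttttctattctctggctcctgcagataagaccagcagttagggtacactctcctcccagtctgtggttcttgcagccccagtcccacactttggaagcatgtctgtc
Gapdh, chr6:125165724-125166023, minus strand: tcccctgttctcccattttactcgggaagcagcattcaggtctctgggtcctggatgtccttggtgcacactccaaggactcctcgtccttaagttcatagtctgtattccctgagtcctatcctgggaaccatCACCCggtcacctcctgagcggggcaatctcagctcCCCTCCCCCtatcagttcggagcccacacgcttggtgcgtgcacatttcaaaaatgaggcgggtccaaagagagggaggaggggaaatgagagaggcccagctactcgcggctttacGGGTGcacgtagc
Hk1 downstream start, chr10:62340372-62340671, minus strand: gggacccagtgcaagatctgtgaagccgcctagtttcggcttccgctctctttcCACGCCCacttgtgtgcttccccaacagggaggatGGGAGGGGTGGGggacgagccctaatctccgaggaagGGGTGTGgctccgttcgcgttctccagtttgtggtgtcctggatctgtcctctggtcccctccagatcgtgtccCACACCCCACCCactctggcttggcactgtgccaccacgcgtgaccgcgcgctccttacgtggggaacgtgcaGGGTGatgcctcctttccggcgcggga
Hk2, chr6:82774405-82774704, minus strand: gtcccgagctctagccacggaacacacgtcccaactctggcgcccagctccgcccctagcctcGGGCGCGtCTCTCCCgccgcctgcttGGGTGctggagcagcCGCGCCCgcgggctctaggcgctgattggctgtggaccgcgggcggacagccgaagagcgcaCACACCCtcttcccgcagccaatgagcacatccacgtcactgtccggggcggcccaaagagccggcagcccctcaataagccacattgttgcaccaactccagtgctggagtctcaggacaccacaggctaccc
Gpi1, chr7:34230287-34230586, minus strand: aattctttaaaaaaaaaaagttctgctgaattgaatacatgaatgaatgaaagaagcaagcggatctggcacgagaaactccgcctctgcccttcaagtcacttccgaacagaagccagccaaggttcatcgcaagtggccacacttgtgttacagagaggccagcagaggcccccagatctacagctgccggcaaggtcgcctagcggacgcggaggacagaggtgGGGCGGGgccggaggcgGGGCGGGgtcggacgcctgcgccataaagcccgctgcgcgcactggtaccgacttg
Pfkl, chr10:78009758-78010057, minus strand: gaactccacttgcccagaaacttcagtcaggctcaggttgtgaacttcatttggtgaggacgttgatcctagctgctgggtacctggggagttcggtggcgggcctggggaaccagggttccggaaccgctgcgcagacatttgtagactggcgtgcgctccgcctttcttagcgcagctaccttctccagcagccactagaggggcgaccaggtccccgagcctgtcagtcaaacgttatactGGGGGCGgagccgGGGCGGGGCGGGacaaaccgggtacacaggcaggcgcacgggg
Tpi1, chr6:124814109-124814408, minus strand: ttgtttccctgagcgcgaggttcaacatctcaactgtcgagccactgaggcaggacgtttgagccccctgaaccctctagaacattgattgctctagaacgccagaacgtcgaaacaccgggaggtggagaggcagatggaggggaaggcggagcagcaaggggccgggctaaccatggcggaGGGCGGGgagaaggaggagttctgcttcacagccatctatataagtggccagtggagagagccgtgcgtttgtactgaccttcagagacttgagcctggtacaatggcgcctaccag
Pgk1, chrX:106186850-106187149, plus strand: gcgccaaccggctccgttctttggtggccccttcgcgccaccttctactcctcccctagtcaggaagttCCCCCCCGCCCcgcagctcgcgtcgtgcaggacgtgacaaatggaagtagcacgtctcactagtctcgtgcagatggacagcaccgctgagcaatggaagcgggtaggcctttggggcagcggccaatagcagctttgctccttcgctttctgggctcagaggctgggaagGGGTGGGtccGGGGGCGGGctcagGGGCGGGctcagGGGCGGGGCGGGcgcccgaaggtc

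All 10 genes matched the RefSeq promoter table, with 14 windows in all because Hk1, Pklr and Aldoa have several starts, and the windows of the last pair of Aldoa starts overlap. CACCC was found in 8 of the 14 windows, against 57.5% of all 32851 windows of that length. CNCNCCC was found in 13 of 14, against 67.9% of all windows; it takes in CACACCC and CCCGCCC and can overlap CACCC, and runs of G or C also match it. CACACCC was in 4 of 14 windows (7.95% of all) and CCCGCCC in 5 of 14 (25.6% of all). The GC content of the 14 windows ran from 50.7% to 67.3%, mostly above the median of 52.7% over all windows. Shares of these C-rich motifs were not adjusted for it. GATAA, the core of sites for erythroid GATA factors, was in 3 of 14 windows (25.4% of all). The upstream Pklr window held both a CACACCC match on the opposite strand at -68 to -62 and GATAA at -34 to -30, counted with the start base as 0. The downstream Hk1 window held 5 CACCC matches and 2 CACACCC matches. The Gpi1 window held no CACCC and 2 CCCGCCC matches, at -23 to -17 and -6 to 0. The Pfkl window held 2 CCCGCCC matches, at 7 to 13 and 12 to 18, and the Tpi1 window 1, at -67 to -61. The Pgk1 window held 8 CNCNCCC and 5 CCCGCCC matches although no peak of either factor was assigned to that gene. These matches describe letters and not bound sites.

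In newly made RNA the enzyme genes did not move together. Pklr fell and Gapdh rose in J2E-KLF3-ER, and the other 8 did not pass the authors' test. The 2 called genes compare with 2.72% of all tested genes called at the authors' q below 0.05 (1.90% falling and 0.821% rising). The median log2 fold change of the 10 genes was 0.05, against 0.03 over the 9574 tested genes with values above 0 in both groups; 6 of the 10 were above 0, against 53.5% of those genes. The summed level of the 10 genes was 375 FPKM in J2E and 405 FPKM in J2E-KLF3-ER per the authors' deposited table, a ratio of 1.08, against 1.09 for the sum over all tested genes with values above 0 in both groups. RNA from a whole culture cannot separate fewer cells of a type from less RNA per cell.

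**Figure D1:**
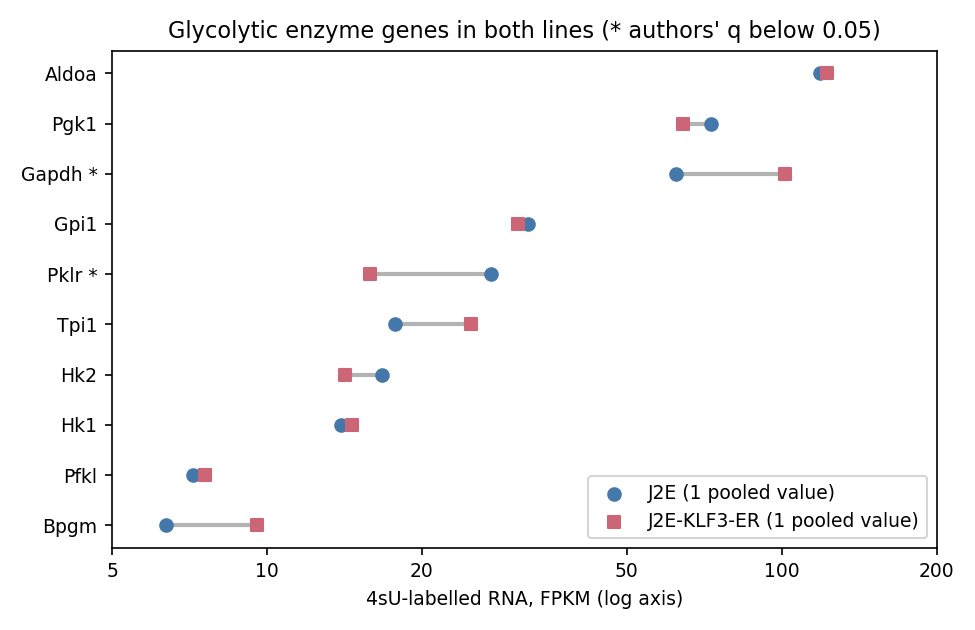
Level of newly made RNA of each enzyme gene in J2E (circles) and J2E-KLF3-ER (squares), as the authors' pooled FPKM on a log axis, with no error because 1 value is given per group. Gapdh goes from 62.2 to 101 FPKM and Pklr from 27.2 to 15.9 FPKM, and these are the 2 genes with an asterisk.

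Levels per length spanned more than an order of magnitude within the pathway. Aldoa was highest in both lines, at 119 FPKM in J2E, and Bpgm was lowest in J2E, at 6.37 FPKM, both per the authors' deposited table. The order in J2E was Aldoa, Pgk1, Gapdh, Gpi1, Pklr, Tpi1, Hk2, Hk1, Pfkl and Bpgm. In J2E-KLF3-ER the order changed at 4 pairs of neighbours: Gapdh passed Pgk1, Tpi1 passed Pklr, Hk1 passed Hk2 and Bpgm passed Pfkl. As no spread is given, it is not known which neighbours in this order differ. Aldoa lay above 96.7% of tested genes in J2E and Bpgm above 24.2%.

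Pklr, the gene of the liver and red cell pyruvate kinase that makes pyruvate and ATP in the last step, lies on chromosome 3 at 88940064 to 88950516 (mm9). Its level was 27.2 FPKM in J2E and 15.9 FPKM in J2E-KLF3-ER per the authors' deposited table. That is 1.72-fold lower, a log2 fold change of -0.78 (authors' p = 0.0001, authors' q = 0.00707), per the authors' deposited table. Only 1.23% of tested genes had a smaller p. Pkm, which encodes the other pyruvate kinase and dominates in most growing cells, went from 89.5 to 79.1 FPKM and was not called (log2 fold change -0.18, authors' q = 0.647 per the authors' deposited table). Pklr thus made up 23.3% of the summed level of the pyruvate kinase genes in J2E and 16.7% in J2E-KLF3-ER. Other red cell genes moved in the same comparison. Of 14 erythroid marker rows tested, 5 fell (Klf1, Epor, Slc4a1, Ermap and Kel) and none rose. Over all tested genes 1.90% fell and 0.821% rose. None of the 14 was at 0, and their summed level went from 800 to 595 FPKM per the authors' deposited table. The rows Hba-a1,Hba-a2 and Hba-a2 share a locus. The joined row went from 0.0208 to 4.07 FPKM per the authors' deposited table and was not called (authors' q = 0.664). The part of these markers in the Pklr result was not tested. The decline did not run through the whole list: Alas2, of haem synthesis, had a log2 fold change of 0.58 (authors' p = 0.0326, authors' q = 0.262) per the authors' deposited table, and Hbb-b1,Hbb-b2, Tfrc, Tal1 and Epb4.2 lay between -0.11 and 0.07. Klf1 itself went from 122 to 55.6 FPKM per the authors' deposited table (log2 fold change -1.14, authors' q = 0.00408).

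Pklr carried the highest KLF1 and the highest KLF3 peak of the enzyme genes, at 1 upstream site. The KLF1 peak spanned 88936212 to 88936636 on chromosome 3 with an enrichment of 22.3 (rank 415 of 3800; enrichment is the authors' value per peak), and its summit was 3638 bp upstream of the start. The KLF3 peak there spanned 88936263 to 88936591 with an enrichment of 10.9 (rank 1230 of 4579), and the summits were 18 bp apart. A weaker KLF1 peak (88939856 to 88940212, enrichment 5.39, rank 3565) had its summit 2 bp past the start itself, and no KLF3 peak overlapped it. That start matches the upstream one of the RefSeq starts, whose window is shown above: it lay 10633 bp from the near edge of the next gene, Hcn3, in mm9 and in GRCm38 alike, whereas the downstream RefSeq start lay 10152 bp from it. Coordinates were not converted between builds, and no sequence of the upstream site was used here. In the columns the authors placed beside their peaks, Pklr is marked down in the KLF3 list and up in the KLF1 list. The KLF3 marks follow the RNA table, as all 92 genes marked down and all 16 marked up there were called the same way. The KLF1 marks refer to a comparison named K1 against K1-ER, whose table was not analysed here and whose direction is not given.

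Gapdh, the gene of the dehydrogenase that passes electrons to NAD, lies on chromosome 6 at 125111870 to 125115601. Its level was 62.2 FPKM in J2E and 101 FPKM in J2E-KLF3-ER per the authors' deposited table. That is 1.63-fold higher, a log2 fold change of 0.70 (authors' p = 0.0001, authors' q = 0.00707), per the authors' deposited table. Neither flanking gene passed the test (both were chosen after seeing their values): Iffo1 and Ncapd2 had log2 fold changes of 0.10 and 0.11 (authors' q = 0.910 and 0.806) per the authors' deposited table. Gapdh, Aldoa, Tpi1 and Pgk1 have processed copies elsewhere in the mouse genome, and how shared reads were counted is not given in the sources used here, so their values are uncertain.

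Gapdh had 2 peaks of each factor. A KLF1 peak (125116442 to 125116741, enrichment 11.3, rank 1481) and a KLF3 peak (125116482 to 125116672, enrichment 6.09, rank 3476) overlapped, with summits 1004 and 977 bp upstream of the start and 27 bp apart. A second KLF3 peak (125115587 to 125115792, enrichment 5.65, rank 3798) had its summit 76 bp upstream and no overlapping KLF1 peak. The second KLF1 peak (125110602 to 125110943, enrichment 12.5, rank 1285) had its summit 1091 bp past the 3′ end of Gapdh, inside the locus of Iffo1, and went to Gapdh only through its start site. Both KLF3 peaks are in the lower part of their list, whose median enrichment is 7.94. The RefSeq window of Gapdh shown above starts elsewhere: its start lay 2234 bp from the near edge of Ncapd2 in GRCm38, and the authors' start 2424 bp from it in mm9.

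**Figure D2:**
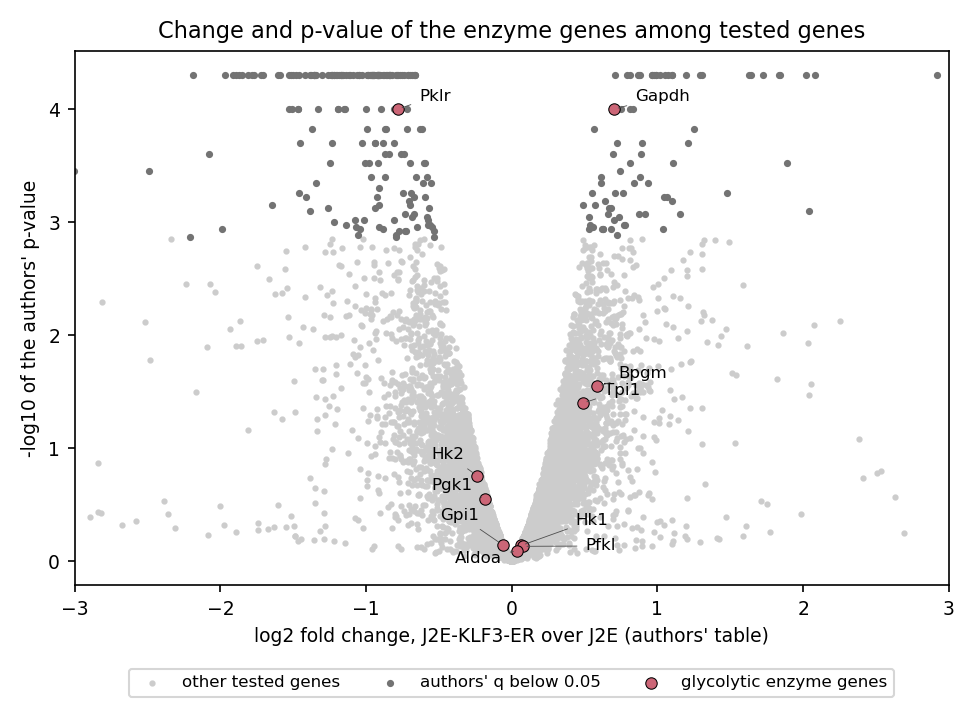
Authors' log2 fold change, J2E-KLF3-ER over J2E, against -log10 of the authors' p-value for tested genes (15 beyond the horizontal axis are not drawn), with the 10 enzyme genes as large points. Pklr and Gapdh stand among the genes with q below 0.05 (dark grey), at -0.78 and 0.70.

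Tpi1 and Bpgm had positive changes that missed the threshold. Tpi1, the gene of triose phosphate isomerase, lies on chromosome 6 as Gapdh does, at 124758959 to 124764314, an interval its row shares with Spsb2. It went from 17.7 to 24.9 FPKM per the authors' deposited table (log2 fold change 0.49, authors' p = 0.0400, authors' q = 0.288). Bpgm, on chromosome 6 at 34426356 to 34455610, makes the bisphosphoglycerate that binds haemoglobin. It went from 6.37 to 9.58 FPKM per the authors' deposited table (log2 fold change 0.59, authors' p = 0.0283, authors' q = 0.245). With Pklr and Gapdh, 4 of the 10 genes had an unadjusted p below 0.05, against 15.4% of all tested genes. Tpi1 had no peak of either factor. The only peak of Bpgm was a KLF1 peak (34467827 to 34468036, enrichment 6.82, rank 3087) with its summit 12320 bp past the 3′ end of the gene and 41574 bp from its start.

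Hexokinase genes, whose products commit glucose to the cell, were not called. Hk1, the hexokinase of red cells, went from 13.9 to 14.6 FPKM per the authors' deposited table (log2 fold change 0.07, authors' q = 0.918). Hk2, the inducible form, went from 16.7 to 14.2 FPKM per the authors' deposited table (log2 fold change -0.24, authors' q = 0.553). The level of Hk2 was 1.20 times that of Hk1 in J2E and 0.972 times in J2E-KLF3-ER. Hkdc1, a hexokinase-like gene next to Hk1 that was named after its values were seen, went from 7.94 to 5.00 FPKM per the authors' deposited table (log2 fold change -0.67, authors' p = 0.00515, authors' q = 0.105). The row of Hk1 (chromosome 10, 61731603 to 61842656) shares its interval with 2210417K05Rik, a gene on the other strand, and whether counting used strand is not given.

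Binding at Hk1 lay at an internal start and in the intron beyond it. The authors measured its peaks from a start at 61803169, which is 39487 bp downstream of the end of the table's interval at 61842656; the RefSeq starts of Hk1 are also 39487 bp apart, which places the downstream window shown above, with its CACCC matches, at the start these peaks were measured from. A KLF3 peak of 593 bp (61802875 to 61803467, enrichment 7.48, rank 2576) had its summit 207 bp past this start. It overlapped a KLF1 peak (61803203 to 61803429, enrichment 8.09) that the authors gave to 2210417K05Rik, whose start on the other strand is 186 bp away; the summits were 351 bp apart. In the intron further on, 12733 bp past the start for KLF1 and 12729 bp for KLF3, a KLF3 peak (61790332 to 61790572, enrichment 9.67, rank 1540) and a KLF1 peak (61790326 to 61790562, enrichment 7.77, rank 2592) had summits 4 bp apart. Hk2 had 1 KLF3 peak (chromosome 6, 82724410 to 82724774, enrichment 8.22, rank 2129), with the summit 106 bp upstream of its start, and no KLF1 peak.

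Gpi1, Pfkl, Aldoa and Pgk1 were not called either, and their levels in the lines were close. Gpi1, which turns glucose phosphate into fructose phosphate (chromosome 7, 34986346 to 35015324), went from 32.1 to 30.8 FPKM per the authors' deposited table (log2 fold change -0.06, authors' q = 0.916). Pfkl, the liver-type phosphofructokinase of the main control step (chromosome 10, 77449694 to 77472541), went from 7.18 to 7.57 FPKM per the authors' deposited table (log2 fold change 0.08, authors' q = 0.922). Aldoa, the aldolase of muscle and red cells (chromosome 7, 133938748 to 133943961), went from 119 to 122 FPKM per the authors' deposited table (log2 fold change 0.04, authors' q = 0.944). Pgk1, which makes the first ATP of the pay-off steps (chromosome X, 103382463 to 103399038), went from 73.0 to 64.4 FPKM per the authors' deposited table (log2 fold change -0.18, authors' q = 0.660). A q above the threshold does not show that these levels were equal. Among isozymes named after their values were seen, Pfkm was close to Pfkl, at 6.21 FPKM in J2E and 8.95 FPKM in J2E-KLF3-ER per the authors' deposited table. Aldoc was at 0.668 and 0.724 FPKM per the authors' deposited table, far below Aldoa.

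Several of these genes whose RNA was not called carried KLF3 peaks and no KLF1 peak. Gpi1 had 3 KLF3 peaks: 1 at the promoter (35015290 to 35015509, enrichment 9.17, rank 1726) with its summit 54 bp upstream, 1 in the gene 429 bp past the start (35014763 to 35014938, enrichment 4.94) and 1 lying 3839 bp upstream (35019044 to 35019248, enrichment 6.54). Pfkl had 2, with summits 6 bp and 417 bp past its start (77472418 to 77472681, enrichment 7.26, and 77471993 to 77472243, enrichment 8.81). Aldoa had 1 low KLF3 peak (133943159 to 133943368, enrichment 5.30, rank 3970), 497 bp upstream of an internal start at 133942768. That start is 1193 bp inside the table's interval, and the first pair of RefSeq starts of Aldoa is also 1193 bp apart. Pgk1 and Tpi1 were the only genes of the 10 with no peak in either list.

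**Figure D3:**
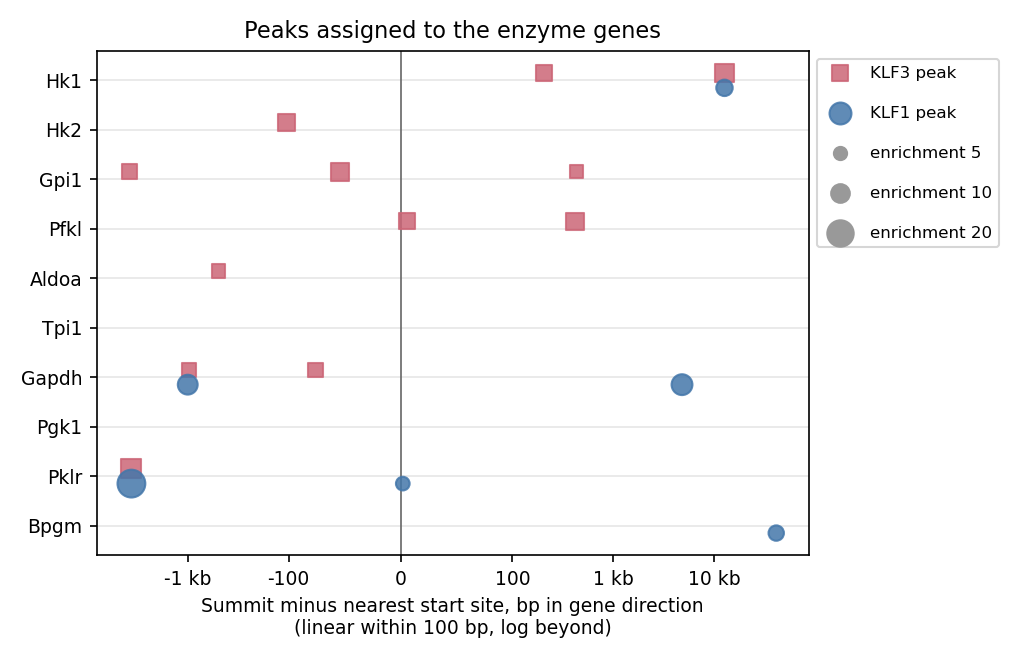
Distance from each peak's summit to the nearest start site in the gene's direction, linear within 100 bp and on a log scale beyond, for KLF3 (squares) and KLF1 (circles), with the symbol's area set by enrichment. Of the KLF3 summits 9 of 12 lie within 1 kb of the start (81.2% in the whole list), and the KLF1 peaks of Pklr and Gapdh at 3638 and 1004 bp upstream sit on KLF3 peaks.

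Counted over the 10 genes, 7 had a KLF3 peak, against 32.4% of tested genes. A KLF1 peak was assigned to 4 (19.1% of tested genes) and peaks of both factors to 3, namely Pklr, Gapdh and Hk1 (13.1% of tested genes). Over all genes of the RNA table, tested or not, the shares were 16.1%, 11.9% and 6.67%. With 1 pooled library per factor these shares have no replicate check, and the KLF1 and KLF3 lists come from different lines and antibodies. Of the 12 KLF3 peaks, 9 had the summit within 1 kb of the start, against 81.2% of all KLF3 peaks, and 4 shared 1 bp or more with a KLF1 peak, against 34.0% of all KLF3 peaks. Of the 6 KLF1 peaks, 1 lay within 1 kb, against 41.0% of all KLF1 peaks, and 3 overlapped a KLF3 peak, against 39.3% of all KLF1 peaks. Genes with a KLF1 peak numbered 2, Pklr and Gapdh, when summits had to lie within 10 kb. Genes with peaks of both factors went from 3 to 0 when summits had to lie within 1 kb. That 0 depends on the cut-off and on peak assignment. The shared site of Gapdh had its KLF1 summit 1004 bp upstream, just over the limit. The KLF1 peak overlapping the KLF3 peak at the Hk1 start was given to 2210417K05Rik. When peaks had to reach their list's median enrichment, 1 gene had both. Both called genes carried peaks of both factors, and they moved in opposite directions. Hk1 carried peaks of both and was not called. The 4 genes with KLF3 peaks alone (Hk2, Gpi1, Pfkl and Aldoa) had log2 fold changes between -0.24 and 0.08 per the authors' deposited table. A link between binding and change was not tested, and the share of all called genes with peaks of both factors is not given here.

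The wider pathway was read from 6 lists of 65 genes, of which 41 were tested. By the authors' deposited table, 1 of the 41 rose and 3 fell, all in the list of transcription factors, and the median log2 fold change was 0.06. Over all tested genes 0.821% rose and 1.90% fell. Klf1, among the 3 that fell, was also counted among the fallen erythroid markers. The gene that rose was Klf3, which was also added as the transgene, so its call says nothing about the pathway. Of the other pathway genes, 26 of 41 had a KLF3 peak, 15 a KLF1 peak and 13 both. Over all tested genes the shares were 32.4%, 19.1% and 13.1%. Peak shares above those of all tested genes were thus not particular to the enzyme genes counted above. The tool behind the authors' test is not given in the sources used here.

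Among other glycolytic enzymes, 0 of 8 tested genes was called, and 1, Hkdc1, had an unadjusted p below 0.05 by the authors' test. Ldha, the lactate dehydrogenase gene that regenerates NAD, was the highest, at 210 FPKM in J2E and 254 FPKM in J2E-KLF3-ER per the authors' deposited table (log2 fold change 0.27, authors' q = 0.379). Pgam1, a phosphoglycerate mutase gene, went from 27.7 to 27.6 FPKM and the enolase gene Eno3 from 23.4 to 17.7 FPKM per the authors' deposited table (authors' q = 0.994 and 0.369). These genes and Pkm had overlapping KLF1 and KLF3 peaks. The Pkm promoter held the highest KLF1 peak of the pathway lists (chromosome 9, 59503708 to 59504312, enrichment 38.1), overlapped by a KLF3 peak of enrichment 15.7. At Eno3 the shared site had its KLF1 summit at -1111 bp from the start (enrichment 20.6) and its KLF3 summit at -1106 bp (15.4). At Ldha the summits lay at -12482 bp (KLF1, enrichment 18.4) and -12475 bp (KLF3, 8.32). The enolase row joining Eno1 and Gm5506, named after its values were seen, had a log2 fold change of 2.39 with an authors' q of 0.404 per the authors' deposited table, and its near-identical copy makes it uncertain.

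Of 5 transporter genes tested 0 was called and 1, Bsg, had an unadjusted p below 0.05 by the authors' test. The lactate carrier gene Slc16a1 went from 71.5 to 75.7 FPKM and its partner Bsg from 46.9 to 34.0 FPKM per the authors' deposited table (authors' q = 0.864 and 0.195). The glucose carrier genes Slc2a1 and Slc2a3 went from 16.3 to 14.0 and from 9.44 to 10.4 FPKM per the authors' deposited table (authors' q = 0.667 and 0.823). Slc2a1 had a shared site at -2802 bp for KLF1 (enrichment 7.46) and -2798 bp for KLF3 (6.11), and had a KLF3 peak at its promoter (8.40). Slc16a1 and Bsg had peaks of both factors that did not overlap. Among flux regulators 0 of 4 tested genes was called and 0 had an unadjusted p below 0.05 by the authors' test. Txnip, which limits glucose uptake, was at 45.8 FPKM in J2E and 45.9 FPKM in J2E-KLF3-ER per the authors' deposited table. Pfkfb2, Pfkfb3 and Pfkfb4, which set the level of a phosphofructokinase activator, had log2 fold changes of 0.39, -0.23 and 0.01 per the authors' deposited table.

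In the pentose phosphate pathway, the source of NADPH that protects red cells from oxidation, 0 of 7 tested genes was called, 6 of 7 changes were above 0 and the list median was 0.31 per the authors' deposited table. Pgd, a dehydrogenase gene named after its values were seen, was the only one with an unadjusted p below 0.05, at 10.8 and 16.9 FPKM per the authors' deposited table (log2 fold change 0.65, authors' q = 0.0932). Tkt, Taldo1, Rpia and Pgls had log2 fold changes of -0.05, 0.19, 0.25 and 0.49 per the authors' deposited table. Overlapping peaks of both factors lay at the starts of Tkt and Rpia. Of 7 tested genes of pyruvate entry into mitochondria 0 was called, and 1, Mpc2 (named after its values were seen), had an unadjusted p below 0.05 by the authors' test. Pdha1, Pdk1, Dlat and Pdhb had log2 fold changes of 0.16, -0.06, 0.23 and 0.27 per the authors' deposited table, and the Pdk1 promoter held overlapping peaks, with enrichments of 20.3 for KLF3 and 6.83 for KLF1.

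Transcription factors that act on glycolytic genes held all 4 called genes of the wider pathway. That list was fixed with earlier results of these data known and includes Klf3 and Klf1, the factors profiled here. Where the calls fell is thus no result about regulators of glycolysis. Klf3 rose, at 7.46 and 180 FPKM per the authors' deposited table (log2 fold change 4.59), in a row that cannot separate the transgene from the resident gene. Myc fell by 1.60 and Sp3 by 0.71 on the log2 scale per the authors' deposited table (authors' q = 0.00408 for both), beside Klf1. Arnt, the partner of the hypoxia-inducible factors, had overlapping promoter peaks (enrichment 22.1 for KLF3 and 8.78 for KLF1) and a log2 fold change of -0.13 per the authors' deposited table. Sp1 and Max had log2 fold changes of -0.03 and 0.13 per the authors' deposited table and peaks of both factors that did not overlap.

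**Figure D4:**
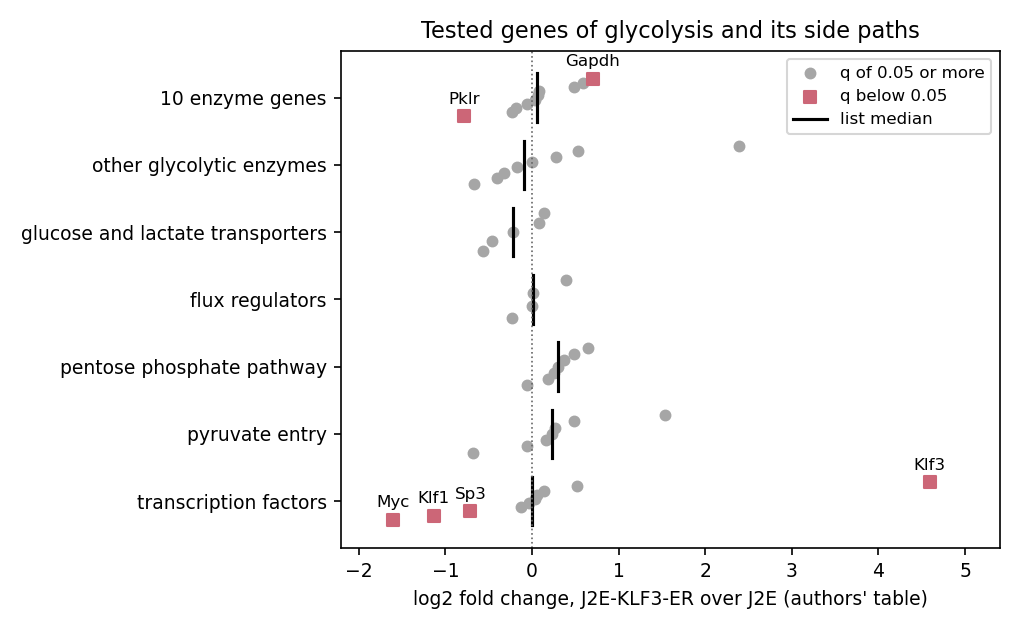
Log2 fold change of each tested gene of glycolysis and its side paths, J2E-KLF3-ER over J2E, by list, with the list median as a bar. Called genes (squares) are Pklr and Gapdh among the 10 enzymes and Myc, Klf1, Sp3 and Klf3 among the transcription factors.

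Markers of other cells were mostly low in both lines. Of 8 myeloid genes 3 were tested and 0 called, with a summed level of 35.9 FPKM in J2E and 27.5 FPKM in J2E-KLF3-ER per the authors' deposited table and Ctsg at 0 in both. Csf1r made up most of that sum and was not low, at 23.2 FPKM in J2E and 18.5 FPKM in J2E-KLF3-ER per the authors' deposited table (authors' q = 0.380). The 6 megakaryocyte genes summed to 157 and 176 FPKM per the authors' deposited table, nearly all from Pf4 and Itga2b, and 0 of 2 tested was called. Mast cell genes (5, summed 1.96 and 1.43 FPKM) and lymphoid genes (6, summed 1.24 and 1.06 FPKM) were not tested per the authors' deposited table. The 5 hepatocyte genes summed to 5.46 and 3.09 FPKM per the authors' deposited table, with Apoa1 at 0 in both, and 0 of 1 tested was called. By the authors' test 0 of the tested myeloid and 0 of the tested megakaryocyte genes had an unadjusted p below 0.05, and 1 hepatocyte gene, Afp (named after its values were seen), did. Of all these markers, only the erythroid list held genes called at q below 0.05.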

How the data were processed

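Chromatin from 4 libraries and 4sU-labelled RNA from 6 was profiled. The submitters' processing notes name mm9, TopHat2 2.0.10, MACS 1.4.2 and MACS2 without roles, and what tested the RNA is not given in the sources used here. The authors' RNA table holds, per the file headers, 1 pooled FPKM value for each group and a log2 fold change of J2E-KLF3-ER over J2E. It also holds the authors' p-value, their q-value and the score of the test. Each deposited peak carries an enrichment ratio. The depth per library is unknown. No per-sample column exists to refit, so the authors' q below 0.05 was used as the call; 0 columns of single samples went unused, and 93 blank rows were dropped. The deposited q equals a Benjamini-Hochberg adjustment over 9619 genes within 5.26e-07. In the KLF1 list 13 gene entries turned into dates were read back.

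The genes, lists, naming rule and tests were chosen with earlier results of these data known. Named genes are the 10 enzymes, and of each other pathway list every called gene, up to 4 tested genes of highest FPKM in J2E and those with peaks of both factors; exceptions are marked. Marker genes have no naming rule, and those named were chosen after their values were seen. The RNA table's intervals count from 0 at the start and were raised by 1 here. The deposited peak distance is start site minus summit and was turned into the gene's direction. Alternatives were other q thresholds, a floor of 1 FPKM, centring, pseudocounts of 1 and 5 FPKM, peak distance, enrichment and overlap; unadjusted p-values were added after seeing the data. Adjustment and overlap functions were tested on simulated data. Python 3.11.15, pandas 2.3.3, NumPy 2.4.6, SciPy 1.17.1 and matplotlib 3.10.9 were used.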

Additional observations from a re-analysis of the deposited data

How the results depend on the processing

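Of 71 values under other settings, 0 changed direction. For many of them this was fixed in advance. A count has no direction, and adding the same FPKM to both groups cannot reverse the change of a single gene. Counting at an unadjusted p below 0.05, a setting added after seeing the data, gave 3 rising enzyme genes in place of 1. In the other pathway lists it gave 5 falling genes in place of 3 and 3 rising in place of 1. At q below 0.1 the latter count was 2. Each rising count of the other lists includes Klf3, the gene also added as the transgene. The number of enzyme genes with a KLF1 peak went from 4 to 2 within 10 kb and to 1 within 1 kb. It was 2 at or above the list's median enrichment. The number with peaks of both factors went from 3 to 0 within 1 kb and to 1 at or above the median. Fewer peaks are counted under these settings, and the 0 also depends on peak assignment and the exact cut-off. With 5 FPKM added to each value the log2 fold change of Pklr was -0.63 and that of Bpgm 0.36; the other 38 of 40 values for single enzyme genes moved by less than 0.1, centring on the chromosome included. No paired analysis was possible because the RNA table holds 1 pooled value per group; for the same reason no library could be left out, the vehicle-treated J2E library included. Near-equal levels could not be ordered, as no depth or spread is known.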

Other observations

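The surroundings of the 10 genes, looked at after seeing the data, showed what tested genes within 500 kb did. Around Gapdh, 22 other tested genes had a median log2 fold change of 0.06 per the authors' deposited table, 0 of them was called, and 1 had a larger change than Gapdh. Around Pklr, 29 other tested genes had a median of -0.03 per the authors' deposited table, 0 was called and 1 had a larger change. Around Tpi1, Gapdh was the only called gene of 23, and 2 had a larger change than Tpi1. The stretches around Gapdh and Tpi1 overlap, so their neighbours are in part the same genes. Around Hk1, 1 of 16 neighbours was called, around Hk2 2 of 12, around Pfkl 2 of 23 and around Aldoa 3 of 37, and around Gpi1, Pgk1 and Bpgm 0 of 4, 0 of 4 and 0 of 5, per the authors' deposited table. Over all tested genes 2.72% were called, and whether any of these small counts differs from that share was not tested.

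The marks beside the KLF1 peaks, from the K1 against K1-ER comparison, name Pklr as up, and give no up or down mark to Hk1, Gapdh and Bpgm. Of the other pathway genes with a KLF1 peak, 4 of 15 were marked up (Eno3, Slc2a1, Bsg and Rpia) and 1, Pgd, down. Over 1838 tested genes with a KLF1 peak, 15.8% were marked up and 0.598% down. The log2 fold changes of these genes in J2E-KLF3-ER over J2E, which share no library with that comparison as far as the labels say, were -0.78 for Pklr, -0.40 for Eno3, -0.22 for Slc2a1, -0.46 for Bsg and 0.25 for Rpia, and 0.65 for Pgd, per the authors' deposited table. Pklr alone of them was called.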
